A study of Mus musculus with 9 samples.

Results

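Mouse cytotoxic T lymphocytes (CTL) treated with rapamycin or with KU-0063794 were compared with solvent controls for 8 enzyme genes of serine, proline and asparagine synthesis: Asns, Phgdh, Psat1, Psph, Shmt2, Mthfd2, Pycr1 and Aldh18a1. The members were taken by gene symbol from the annotation of the Affymetrix array, which gave 20 probe sets with 1 of these symbols alone, for 7 of the 8 genes, among 45101 probe sets and 18193 genes. A further 2 Phgdh probe sets also carried the symbol of a second gene and were not used, and no probe set was listed for Pycr1, which is not analysed here. All 7 genes passed the filter on low signals, and so did all 20 probe sets.

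The mice were of the P14-TCR strain, wild type in genotype, and carry a transgenic receptor that directs CD8 T cells to 1 viral peptide. In all groups gp33-41 peptide together with IL-2/12 activated the cells over 48 h, a wash and 96 h of further culture followed, and over the last 48 h the cells received rapamycin at 20 nM, KU-0063794 at 1 uM or the solvent DMSO. Each of the 3 groups held 3 cultures on day 6, 1 array per culture, and cultures of the same replicate number were taken to come from the same spleen. Rapamycin acts on the mTOR kinase through FKBP12 and mainly inhibits mTOR complex 1, whereas KU-0063794 competes for the kinase's ATP site and inhibits both mTOR complexes. The cultures are bulk samples grown in vitro, in which fewer cells of a type and less RNA per cell cannot be told apart.

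PHGDH, PSAT1 and PSPH act in that order to make serine from the glycolytic intermediate 3-phosphoglycerate. SHMT2 then splits serine in mitochondria into glycine and a folate-bound carbon unit, and MTHFD2 oxidises that unit, which feeds purine and thymidylate synthesis in dividing cells. ALDH18A1 turns glutamate into the precursor of proline, PYCR1 completes proline, and ASNS makes asparagine from aspartate with the amide of glutamine. Several of these genes are known targets of ATF4, a transcription factor that cells make in greater amounts when amino acids are short and, in cell lines, when mTOR complex 1 is active. ATF4 with a C/EBP partner binds composite elements such as TGATGNAA, and MYC binds the E-box CACGTG.

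The stretches of 250 bases before the annotated starts of 3 members are shown because these letters differ between them (RefSeq, GRCm38.p6, 5′ to 3′ on the strand of the gene). Asns and Psph had the lowest fold changes of the members and Aldh18a1 is the only member with the E-box. Capitals mark a match to TGATGNAA in Asns (chr6:7693210-7693459, minus strand) and to CACGTG in Aldh18a1 (chr19:40588464-40588713, minus strand). The Psph stretch (chr5:129787254-129787503, minus strand) held neither.
Asns: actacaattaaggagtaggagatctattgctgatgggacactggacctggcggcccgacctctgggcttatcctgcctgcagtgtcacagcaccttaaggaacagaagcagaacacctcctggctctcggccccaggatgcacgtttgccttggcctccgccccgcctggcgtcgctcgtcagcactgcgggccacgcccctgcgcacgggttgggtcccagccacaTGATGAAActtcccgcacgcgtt
Psph: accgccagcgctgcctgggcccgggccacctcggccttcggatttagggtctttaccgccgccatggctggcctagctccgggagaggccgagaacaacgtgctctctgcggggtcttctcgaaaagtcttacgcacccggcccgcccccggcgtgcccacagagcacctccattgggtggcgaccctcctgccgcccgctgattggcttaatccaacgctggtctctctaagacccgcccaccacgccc
Aldh18a1: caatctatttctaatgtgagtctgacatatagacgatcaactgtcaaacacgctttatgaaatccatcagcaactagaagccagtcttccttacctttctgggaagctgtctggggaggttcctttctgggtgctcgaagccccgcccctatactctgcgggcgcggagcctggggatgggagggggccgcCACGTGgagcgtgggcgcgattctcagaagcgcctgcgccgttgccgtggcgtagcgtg
The match in Asns began 23 bases before the annotated start and that in Aldh18a1 began 59 bases before it. The table held 9 such stretches for the 8 members, Psat1 having a pair. TGATGNAA, searched on both strands, was present in 2 of them, those of Asns and Pycr1, and in 3.45% of all 32851 stretches. CACGTG, which reads the same on both strands and can share 2 letters with an adjoining TGATGNAA, was present in 1 of the 9 and in 6.02% of all. These are matches of letters only, and a stretch without a match says nothing of the factor.

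The arrays differed little as wholes: signals correlated across probe sets with r from 0.987 to 0.996 over the 36 pairs of arrays, and probe sets are not independent replicates. Of 12 genes listed as markers of CD8 T cells all 12 lay above the background level of 1.25 log2 in DMSO cultures, against 2 of 7 B cell, 1 of 4 CD4 T cell, 1 of 9 myeloid, 0 of 1 NK cell and 0 of 2 erythroid markers. The summed signal of the 12 CD8 T cell markers was 88.6 to 91.7 log2 in rapamycin, 88.0 to 91.0 in KU-0063794 and 91.7 to 96.6 in DMSO cultures. Of these 12 markers, Ifng was lower in mean, at log2 fold changes of -2.62 for rapamycin and -2.63 for KU-0063794 (limma adjusted p = 0.0105 and 0.0114). Prf1 was also lower in mean, at -1.49 and -1.74 (limma adjusted p = 0.334 and 0.244). A spleen term in the fit brought these Prf1 values to 0.00393 and 0.00226. The other 10, Gzmb among them, summed to 78.0 to 79.1 in rapamycin, 77.9 to 78.6 in KU-0063794 and 77.2 to 79.2 in DMSO cultures. These ranges overlap, but Ifng and Prf1 were set apart after their values were seen. The overlap therefore cannot show that the remaining markers were unchanged. The difference between the 3' and 5' probe sets of the actin control, a sign of RNA quality, was 0.62 to 0.72 log2 in rapamycin, 0.65 to 0.70 in KU-0063794 and 0.49 to 0.65 in DMSO cultures. The part of these shifts in the results below was not tested.

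With rapamycin Asns, Psph, Psat1 and Phgdh fell, 4 of the 7 genes, and Mthfd2, Aldh18a1 and Shmt2 did not pass the test (limma over 13278 genes, Benjamini-Hochberg adjusted p under 0.05). In the same comparison 1.79% of all genes tested were called lower. With KU-0063794 Asns, Psph and Psat1 fell, 3 of the 7, against 1.78% of all genes called lower. No member was called higher with either inhibitor, against 2.65% of all genes for rapamycin and 2.28% for KU-0063794. With the spleen as a block 6 of the 7 passed in each comparison, all but Shmt2, against 5.52% of all genes called lower for rapamycin and 5.86% for KU-0063794. Both comparisons use the same 3 DMSO arrays, so they are not independent of each other.

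**Figure D1:**
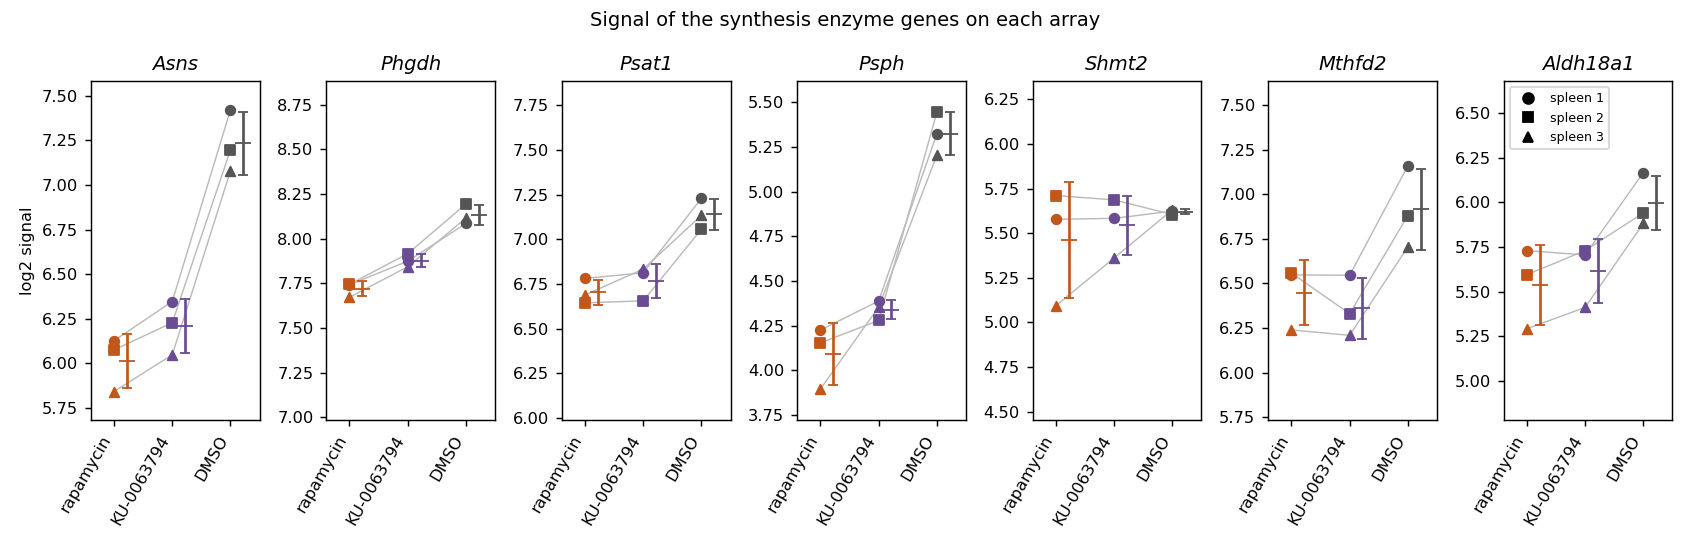
Deposited log2 signal of the 7 genes on each of the 9 arrays, by group; symbols give the spleen, grey lines join cultures of the same spleen, and the bars are the mean ± SD of 3 arrays. Each panel spans the same 1.9 log2 units. All rapamycin and KU-0063794 arrays lie below all DMSO arrays in every panel but that of Shmt2.

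Asns, which encodes asparagine synthetase, read 6.13, 6.08 and 5.84 log2 in the rapamycin cultures of spleens 1, 2 and 3, 6.35, 6.23 and 6.05 in the KU-0063794 cultures, and 7.42, 7.20 and 7.08 in the DMSO cultures. The lowest DMSO array was above the highest array of either inhibitor, and in all 3 groups spleen 1 was highest and spleen 3 lowest. With rapamycin the signal fell to 43.0% of DMSO (log2 fold change -1.22, SE 0.12, limma adjusted p = 0.00439), and with KU-0063794 to 49.2% (log2 fold change -1.02, SE 0.12, adjusted p = 0.00693). Within spleens the difference was -1.29, -1.12 and -1.24 log2 with rapamycin and -1.07, -0.97 and -1.03 with KU-0063794. The second Asns probe set read 5.56 to 6.02 log2 with rapamycin, 5.81 to 6.03 with KU-0063794 and 6.79 to 7.22 with DMSO, and was called lower in both comparisons when every probe set was tested (log2 fold changes -1.16 and -1.03).

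Psph, which encodes the phosphatase of the last step to serine, had a single probe set. It read 4.22, 4.15 and 3.89 log2 with rapamycin, 4.39, 4.28 and 4.35 with KU-0063794, and 5.33, 5.44 and 5.20 with DMSO in spleens 1, 2 and 3. The gap between the highest inhibitor array and the lowest DMSO array was wider than the range within any group. The signal fell to 42.5% of DMSO with rapamycin (log2 fold change -1.23, SE 0.10, limma adjusted p = 0.00393) and to 50.5% with KU-0063794 (log2 fold change -0.99, SE 0.10, adjusted p = 0.00511). Asns and Psph kept their calls without any single array, and their fold changes stood at places 42 and 39 from the lowest among the 13278 genes for rapamycin and at places 88 and 95 for KU-0063794.

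Psat1, which encodes the aminotransferase before PSPH, fell less far. It read 6.78, 6.64 and 6.69 log2 with rapamycin, 6.81, 6.66 and 6.83 with KU-0063794, and 7.23, 7.06 and 7.13 with DMSO. The groups treated with either inhibitor overlapped each other and lay below DMSO, at 74.0% of its signal for rapamycin (log2 fold change -0.44, SE 0.08, limma adjusted p = 0.0234) and 77.2% for KU-0063794 (-0.37, SE 0.08, adjusted p = 0.0419). Both calls depended on the arrays and the fit. With only the 2 groups compared neither passed (rapamycin, adjusted p = 0.0637, and KU-0063794, 0.0910), and the KU-0063794 call was also lost with the probe set of largest SD (0.0716). Without any 1 of DMSO replicate 1, DMSO replicate 3 or a rapamycin array the adjusted p for rapamycin was 0.0516 to 0.0879. For KU-0063794 it was 0.0575 to 0.151 without any array but DMSO replicate 2. A second Psat1 probe set had log2 fold changes of -0.35 and -0.36 for rapamycin and KU-0063794, with groups that also did not overlap DMSO, and passed in neither comparison (adjusted p = 0.148 and 0.140 with every probe set tested).

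Phgdh, which encodes the dehydrogenase that opens serine synthesis, read 7.74, 7.74 and 7.67 log2 with rapamycin, 7.87, 7.92 and 7.84 with KU-0063794, and 8.09, 8.19 and 8.12 with DMSO. The 3 groups did not overlap, with KU-0063794 between the others. With rapamycin the signal fell to 75.1% of DMSO (log2 fold change -0.41, SE 0.07, limma adjusted p = 0.0151), a call lost without rapamycin replicate 3 (adjusted p = 0.0562). With KU-0063794 it stood at 83.8% (log2 fold change -0.25, SE 0.07, limma adjusted p = 0.0872), and it passed once the fit held a spleen block (0.0402). All 4 Phgdh probe sets with this symbol alone had rapamycin and KU-0063794 arrays below every DMSO array, with log2 fold changes of -0.41 to -0.27 and -0.26 to -0.20. Each has the suffix x, which Affymetrix gives to probe sets whose probes may bind other transcripts, and the array annotation pairs the other Phgdh probe sets with Gm8096 or Gm6756. Signal from such copies cannot be told apart from Phgdh here.

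Among the folate enzymes, Mthfd2 did not overlap DMSO but failed the test without the block. It read 6.55, 6.56 and 6.24 log2 with rapamycin, 6.55, 6.33 and 6.21 with KU-0063794, and 7.16, 6.88 and 6.70 with DMSO, so that spleen 3 was lowest in every group. The log2 fold change was -0.47 for rapamycin (SE 0.14, limma adjusted p = 0.111) and -0.55 for KU-0063794 (SE 0.14, adjusted p = 0.0683). With a spleen block in the fit both passed, at 0.00965 and 0.00547. Within spleens it was -0.61, -0.32 and -0.47 with rapamycin and -0.61, -0.55 and -0.50 with KU-0063794. The second Mthfd2 probe set went the same way, at -0.38 and -0.32, and passed in neither comparison.

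Shmt2 was the member whose probe sets disagreed. The brightest read 5.58, 5.71 and 5.09 log2 with rapamycin, 5.58, 5.69 and 5.36 with KU-0063794, and 5.62, 5.60 and 5.63 with DMSO. Only spleen 3 was clearly low with the inhibitors, and the groups overlapped (log2 fold change -0.16, SE 0.15, limma adjusted p = 0.653 for rapamycin, and -0.08, adjusted p = 0.856 for KU-0063794). The fold change turned to 0.02 without rapamycin replicate 3, and for KU-0063794 to 0.02 without KU-0063794 replicate 3. The only Shmt2 probe set without the suffix x read 3.92, 3.95 and 3.78 log2 with rapamycin, 4.05, 3.97 and 3.93 with KU-0063794, and 4.23, 4.19 and 4.27 with DMSO. There all inhibitor arrays lay below all DMSO arrays, at log2 fold changes of -0.35 and -0.25. The remaining Shmt2 probe sets, dimmer and with the suffix x, overlapped DMSO in both comparisons. Their log2 fold changes were -0.01 and -0.15 for rapamycin and 0.04 and -0.04 for KU-0063794. When probe sets with the suffix x or s were left out of the whole table, an alternative chosen after the data were seen, Shmt2 passed for rapamycin (adjusted p = 0.0397) and not for KU-0063794 (0.123).

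Aldh18a1, the proline branch gene, read 5.73, 5.60 and 5.29 log2 with rapamycin, 5.71, 5.73 and 5.41 with KU-0063794, and 6.17, 5.94 and 5.88 with DMSO. The inhibitor groups overlapped each other and lay below DMSO. The log2 fold change was -0.46 for rapamycin (SE 0.14, limma adjusted p = 0.106) and -0.38 for KU-0063794 (SE 0.14, adjusted p = 0.173). With a spleen block in the fit both passed, at 0.0112 and 0.0206. Its 5 probe sets all had negative fold changes, from -0.46 to -0.03 for rapamycin and from -0.42 to -0.13 for KU-0063794. The values above come from a probe set with the suffix x. The only Aldh18a1 probe set without that suffix had a mean of 2.38 log2 with rapamycin, 2.39 with KU-0063794 and 2.81 with DMSO. Its log2 fold changes were -0.43 and -0.42 (limma adjusted p = 0.245 and 0.252 with every probe set tested). None of the 5 passed when every probe set was tested, and the groups of 1 of them overlapped for rapamycin.

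**Figure D2:**
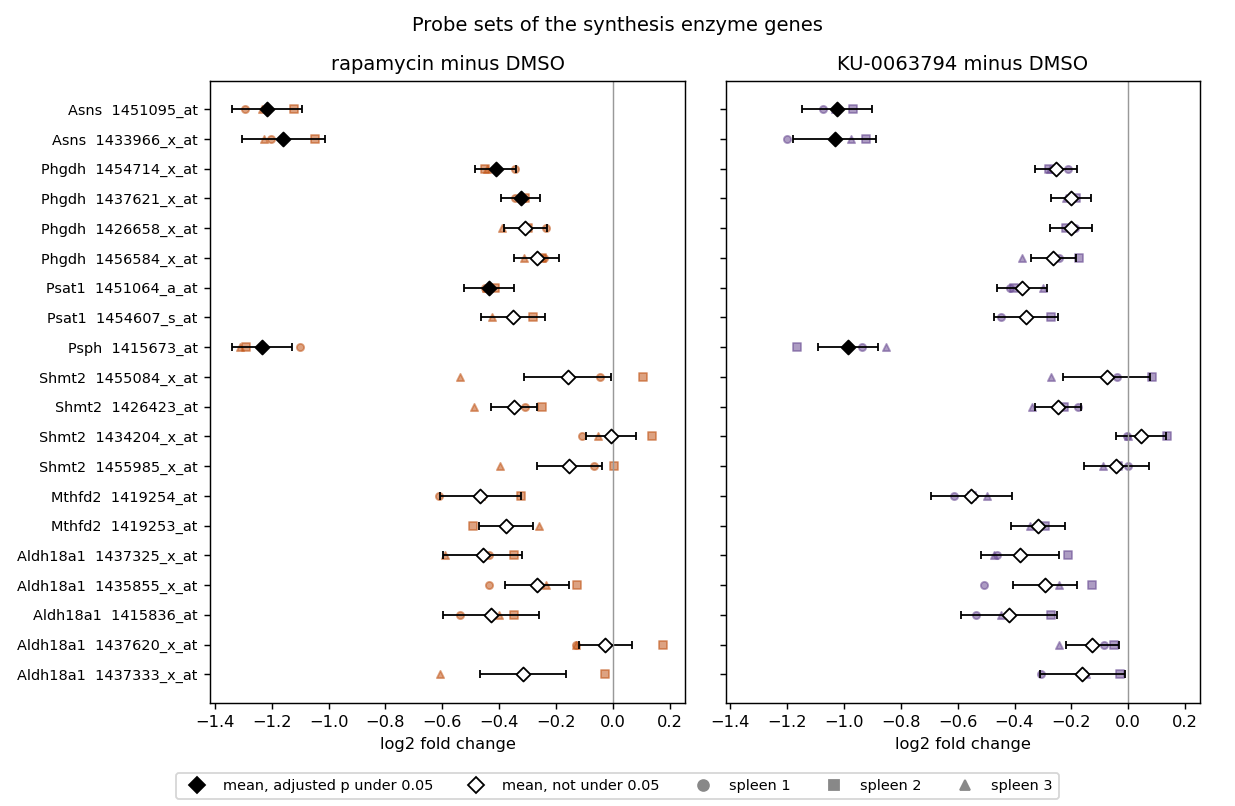
Log2 fold change of each of the 20 probe sets against DMSO, for rapamycin (left) and KU-0063794 (right); diamonds are the means with the SE of the limma fit over all probe sets, and small symbols are the differences within spleens. All 20 means lie below 0 for rapamycin and 19 of 20 for KU-0063794.

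Over the 20 probe sets, all 20 had a negative mean difference with rapamycin and 19 with KU-0063794. Probe sets of 1 gene share their transcripts and are not independent. In all 6 passed for rapamycin, of Asns, Phgdh, Psat1 and Psph, and 3 for KU-0063794, of Asns and Psph. Of the probe sets with a single symbol tested in the same way, 1.14% were called lower for rapamycin and 1.25% for KU-0063794. At the level of genes, 6 of 7 members had every rapamycin array below every DMSO array and 6 of 7 every KU-0063794 array, against 9.69% and 9.29% of all genes. The median log2 fold change of the 7 was -0.46 for rapamycin and -0.38 for KU-0063794, beside -0.00 and 0.01 for all genes tested.

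**Figure D3:**
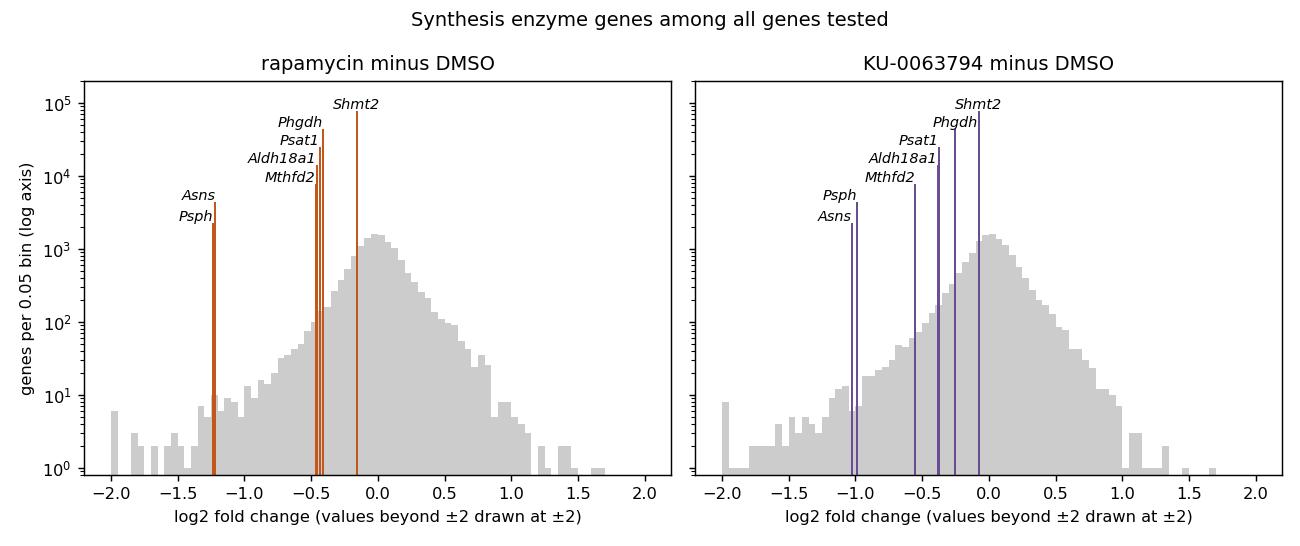
Distribution of log2 fold changes of the 13278 genes tested (grey, log vertical axis), with the 7 members drawn as vertical lines, for rapamycin (left) and KU-0063794 (right) against DMSO; line heights carry no value. All 7 lines stand left of 0, those of Asns and Psph at or near -1 and below, that of Shmt2 closest to 0.

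Set directly against each other, KU-0063794 and rapamycin gave no called member. No gene of the 13278 was called either (0%, limma), with or without the spleen block, while 629 genes (4.74%) and 1 member, Psph, had an unadjusted p under 0.05 without the block. With the block these were 1329 genes (10%) and 3 members, Asns, Phgdh and Psph, and the smallest adjusted p of any gene was 0.0587, against 0.854 without it. Psph was higher with KU-0063794 than with rapamycin by 0.25 log2 (95% interval 0.01 to 0.48, adjusted p = 0.933), in all 3 spleens. Phgdh was higher by 0.16 (95% interval -0.00 to 0.32, adjusted p = 0.933) and Asns by 0.19 (-0.08 to 0.47, adjusted p = 0.937), also in all 3 spleens. The KU-0063794 and rapamycin arrays of Psph and Phgdh did not overlap, as for 4.87% of all genes in that direction. The intervals for the other members were -0.13 to 0.25 for Psat1, -0.26 to 0.42 for Shmt2, -0.41 to 0.23 for Mthfd2 and -0.23 to 0.39 for Aldh18a1, so changes of these sizes between the inhibitors were not resolved.

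SHMT1 is the cytosolic counterpart of SHMT2, MTHFD1 carries out the cytosolic folate steps, and MTHFD2L is a mitochondrial relative of MTHFD2. Shmt1 read 4.78, 5.13 and 4.71 log2 with rapamycin, 5.10, 5.30 and 5.11 with KU-0063794, and 4.89, 5.17 and 4.94 with DMSO, with all groups overlapping and no call (adjusted p = 0.672 and 0.562). Mthfd1 read 5.23, 5.45 and 5.44 with rapamycin, 5.52, 5.74 and 5.78 with KU-0063794, and 5.13, 5.45 and 5.48 with DMSO. The KU-0063794 arrays of Mthfd1 were above the DMSO arrays (log2 fold change 0.33, limma adjusted p = 0.185; blocked by spleen, 0.0181), and those of rapamycin overlapped DMSO (0.02). The fold change of Mthfd2 minus that of Mthfd1 was -0.88 log2 for KU-0063794 (SE 0.23, limma adjusted p = 0.0713 over the whole table) and -0.49 for rapamycin (SE 0.23, adjusted p = 0.304), and neither passed without the block. Within spleens 1, 2 and 3 it was -0.71, -0.33 and -0.43 for rapamycin and -0.999, -0.84 and -0.80 for KU-0063794. In the fit with the spleen block both passed (SE 0.09, adjusted p = 0.0115 for rapamycin and 0.00168 for KU-0063794). Shmt2 minus Shmt1 passed in neither fit (-0.03 for rapamycin and -0.24 for KU-0063794, blocked adjusted p = 0.889 and 0.166). Mthfd2l was below the background level on all 9 arrays, so its difference from Mthfd2 (-0.50 and -0.58) sets a gene against background. Pycrl, which encodes a further enzyme of the last proline step, had log2 fold changes of -0.11 and 0.05 and no call.

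Counts in the related lists are set against the 1.79% of all genes called lower and 2.65% called higher with rapamycin, and 1.78% and 2.28% with KU-0063794. Of 26 further serine, glycine and folate genes tested none passed in limma with either inhibitor, a count near those shares, with medians of -0.05 log2 for rapamycin and 0.03 for KU-0063794, while 15 and 9 of them had negative fold changes. In this list Mthfd2l, Gldc, Aldh1l1, Aldh1l2, Tyms, Ftcd, Folr1, Cbs and Gnmt lay below the background level on all 9 arrays. A missing call there does not show an unchanged gene, and their values enter the medians. With the spleen as a block Mthfd1l fell with rapamycin (-0.34) and Mtrr (0.45), Mthfd1 and Slc19a1 (0.29) rose with KU-0063794. In that fit 5.52% of all genes were called lower and 6.24% higher for rapamycin, and 5.86% and 6.52% for KU-0063794. Block counts of the other lists are set against these shares. Of 13 further proline, ornithine and arginine genes 1 fell with each inhibitor, Asl, which encodes the lyase that releases arginine. Asl read 2.22, 1.61 and 1.61 log2 with rapamycin, 1.95, 2.02 and 2.07 with KU-0063794, and 3.11, 2.60 and 2.83 with DMSO (log2 fold changes -1.03 and -0.83, limma adjusted p = 0.0151 and 0.0339). With the block 3 of the 13 fell with each inhibitor, Asl and the prolyl hydroxylase subunit genes P4ha2 and P4ha1, and with KU-0063794 Azin1 rose (0.31). P4ha2 read 1.87, 2.53 and 1.26 log2 with rapamycin, 1.78, 2.08 and 1.44 with KU-0063794, and 3.78, 3.35 and 2.52 with DMSO, spleen 3 being lowest in each group. Its log2 fold changes were -1.33 and -1.45 (limma adjusted p = 0.0814 and 0.0633, and 0.00693 and 0.00509 with the block). The call of Asl was lost in both comparisons without DMSO replicate 1, and with only the 2 groups compared. It was also lost without rapamycin replicate 2 or 3 for rapamycin, and without DMSO replicate 3 or any KU-0063794 array for KU-0063794 (adjusted p up to 0.224 and 0.245 over all alternatives).

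Of 23 further aspartate, asparagine, glutamate, glutamine and alanine genes 3 fell and 1 rose with rapamycin, and 3 fell and 2 rose with KU-0063794. With the spleen block it was 5 and 3 with rapamycin and 5 and 6 with KU-0063794, where Slc25a12, a mitochondrial aspartate carrier gene, also fell with both (-0.50 and -0.43, limma adjusted p = 0.00772 and 0.0126). In that fit Gfpt1 fell with rapamycin (-0.31, adjusted p = 0.0314) and Got1 with KU-0063794 (-0.31, 0.0420). Glud1 (0.29 and 0.27, adjusted p = 0.0286 and 0.0367) and Adss (0.35 and 0.36, 0.0221 and 0.0193) rose with both. Ctps (0.28, 0.0405) and Cad (0.41, 0.0485) rose with KU-0063794. Without the block those that fell with both were Nars, which charges tRNA with asparagine (log2 fold changes -0.71 and -0.67), Bcat1, the cytosolic branched-chain aminotransferase (-0.87 and -0.55), and Gpt2, the mitochondrial alanine aminotransferase (-1.29 and -1.42). Gpt2 was below the background level on 1 rapamycin and 1 KU-0063794 array, and with only the probe sets free of the suffix x or s its fold changes were -0.70 for rapamycin (adjusted p = 0.0232) and -0.56 for KU-0063794 (0.0561). Glul, which encodes glutamine synthetase, rose with both: it read 4.57, 4.35 and 4.45 log2 with rapamycin, 4.47, 4.54 and 4.33 with KU-0063794, and 3.78, 4.06 and 3.82 with DMSO (log2 fold changes 0.57 and 0.56, limma adjusted p = 0.0182 and 0.0209). Ppat, the first enzyme of purine synthesis, passed with KU-0063794 (0.54, adjusted p = 0.0180) and not with rapamycin (0.34, adjusted p = 0.0822), and its fold changes were -0.07 for rapamycin and -0.00 for KU-0063794 with only the probe sets free of the suffix x or s. Without DMSO replicate 1 every one of the calls made without the block was lost, but those of Nars and Bcat1 for rapamycin. Leaving out 1 inhibitor array ended the calls of Gpt2 (replicate 3) and Glul (replicates 1 and 3) for rapamycin, and for KU-0063794 those of Nars (replicates 2 and 3), Ppat (replicates 1 and 2), and Bcat1, Gpt2 and Glul (any of the 3). Gpt2 for rapamycin was also lost without DMSO replicate 2, and Glul for both without DMSO replicate 3. With only the 2 groups compared the calls of Glul for both, Gpt2 for rapamycin, and Nars and Ppat for KU-0063794 were lost. With the mean of all probe sets of a gene, Glul for rapamycin (0.28, adjusted p = 0.0811), and Bcat1 (-0.30, 0.0691) and Ppat (0.20, 0.201) for KU-0063794 did not pass either.

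**Figure D4:**
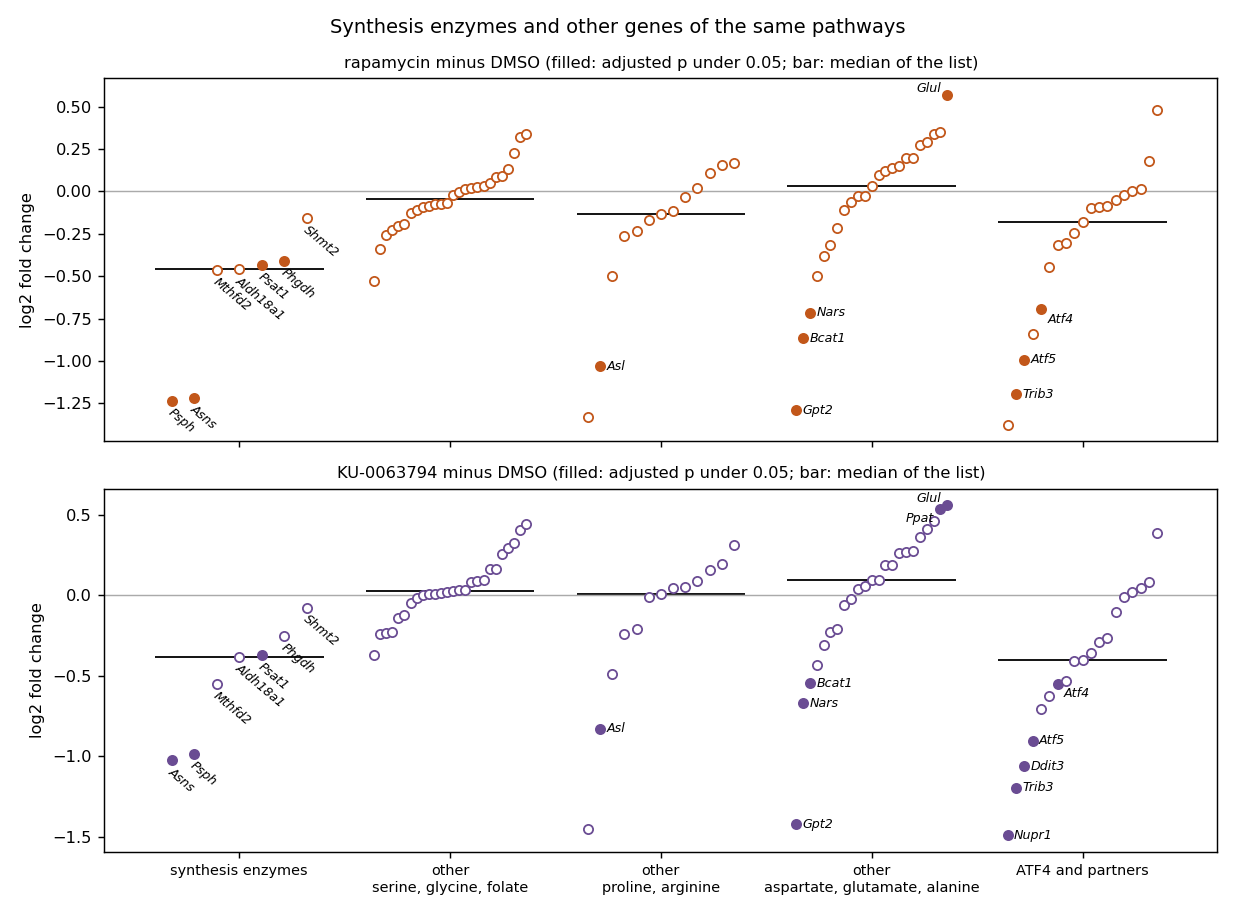
Log2 fold change against DMSO of the 7 synthesis enzyme genes and of the tested genes of 4 related lists, for rapamycin (top) and KU-0063794 (bottom); filled circles passed an adjusted p of 0.05 and bars mark the median of each list. The median of the synthesis enzymes is -0.46 and -0.38, and that of the ATF4 list is -0.18 and -0.40. Those of the other amino acid lists lie between -0.13 and 0.10. Tested genes below the background level are drawn too and enter the medians.

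Atf4 was lower with both inhibitors. It read 7.51, 7.37 and 7.29 log2 with rapamycin, 7.66, 7.51 and 7.43 with KU-0063794, and 8.26, 8.07 and 7.94 with DMSO (log2 fold changes -0.70 and -0.55, limma adjusted p = 0.0122 and 0.0259). In all 3 groups spleen 1 was highest and spleen 3 lowest, the same order as for Asns. Of 19 tested genes of ATF4 and its regulators and partners 3 fell with rapamycin and 5 with KU-0063794, and none rose. Of all genes 1.79% and 1.78% were called lower, and 2.65% and 2.28% higher. With the spleen block 6 fell with rapamycin and 8 with KU-0063794, and Myc rose with both (0.48 and 0.39, adjusted p = 0.00881 and 0.0175). In the blocked fit 5.52% and 5.86% of all genes were called lower, and 6.24% and 6.52% higher. Without the block, the others that fell with both were Trib3 (-1.20 and -1.20), a pseudokinase gene that limits ATF4, and Atf5 (-0.99 and -0.91), a related factor. Ddit3 (-0.45 and -1.06) and Nupr1 (-1.38 and -1.49) passed with KU-0063794 and, in the main fit without the block, not with rapamycin (limma adjusted p = 0.305 and 0.0508). With the block both passed with rapamycin as well (0.0498 and 0.00548), and the difference between the inhibitors was not called for any gene. Nupr1 was above the background level on 5 of 9 arrays. Of the calls made in this list without the block, those of Trib3 for both inhibitors and of Atf4 for rapamycin outlasted the loss of any single array. Without DMSO replicate 1 or any KU-0063794 array the calls of Atf4, Atf5, Ddit3 and Nupr1 for KU-0063794 were lost, as was that of Atf5 for rapamycin without DMSO replicate 1 or rapamycin replicate 2 or 3. Atf5 and Nupr1 for KU-0063794 were lost without DMSO replicate 3 and rapamycin replicates 2 and 3 too, and Nupr1 without rapamycin replicate 1. With the probe set of largest SD in place of the brightest, Atf4 passed in neither comparison. In that setting, and with only the probe sets free of the suffix x or s, Nupr1 passed with rapamycin and not with KU-0063794. Nupr1 also passed with rapamycin in other fits without the block, such as quantile normalization, the trend option and array weights. With only the 2 groups compared the calls of Atf4 and Atf5 for both, and of Ddit3 and Nupr1 for KU-0063794, were lost. Eif2ak4, which encodes the GCN2 kinase that senses uncharged tRNA, had log2 fold changes of 0.01 and 0.05.

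The genes with signals most like those of each member over the 9 arrays were named by Pearson correlation, as a description, since the arrays fall into 3 groups and share 3 spleens. Those nearest to Asns were Pck2 (r = 0.989), the mitochondrial enzyme that makes phosphoenolpyruvate, Grhpr (r = 0.989), a glyoxylate and hydroxypyruvate reductase, and Atf4 (r = 0.989). The stretch of 250 bases before the start of Pck2 also held TGATGNAA, on the other strand, whereas none was found before Grhpr or Atf4. Nearest to Psat1 were Phf10 (0.989) and the tRNA synthetase genes Tars (0.987) and Nars (0.984), and nearest to Psph were Glrx2 (0.989), Tmem41b (0.983) and Asns (0.979). The stretch before Tars held TGATGNAA as well, also on the other strand, and a stretch before Glrx2 held CACGTG. Phgdh was nearest to Prdx3 (0.979), Glrx2 (0.975) and Psph (0.964). Mthfd2 was nearest to Pgk1 (0.992), a glycolytic kinase gene, Higd1a (0.988) and Mgat2 (0.987). Aldh18a1 was nearest to Rab6a (0.986), Siah2 (0.985) and Kcnh7 (0.982), and Shmt2 to Trrap (0.976), Prkcd (0.958) and Gpat4 (0.956). Kcnh7 had a mean of 0.65 log2, under the background level, so its likeness sets Aldh18a1 against background. CACGTG was also found in a stretch before Prkcd.

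The members varied together to different degrees once the group means were removed. Over the 9 arrays their signals correlated with r from 0.23 to 0.98 in the 21 pairs. After the mean of each group was subtracted, r was 0.98 for Asns with Mthfd2, 0.94 for Asns with Aldh18a1 and 0.86 for Mthfd2 with Aldh18a1, the genes whose signal was lowest in spleen 3 in each group. Psat1 gave 0.27 with Asns, 0.16 with Psph and -0.65 with Phgdh, while Phgdh with Psph gave 0.59. These values rest on 9 arrays from 3 spleens.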

How the data were processed

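Total RNA of 9 cultures was measured on 9 Affymetrix mouse arrays. The submitters' processing notes name Affymetrix Expression Console 1.3.1, while how background was corrected and signals were summarised and normalized is not given in the sources used here. Log2 signals per probe set are what the authors deposited (array medians 0.47 to 0.53), and they were used as they stand, with all columns in use. Their scale was checked on the hybridisation controls, which rose by 1.07 per doubling of nominal concentration. Of 45101 probe sets, 64 were controls, 34945 carried 1 gene symbol and were used, 932 carried several and 9160 were not listed in the annotation.

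For each gene the brightest probe set, by mean over the 9 arrays, was taken, and it was tested if that mean exceeded the 40th percentile of all non-control probe sets (0.31 log2), which left 13278 genes. Groups were compared with limma 3.58.1 (R 4.3.3; lmFit and eBayes, 3 groups, two-sided, Benjamini-Hochberg over all genes tested, threshold 0.05), without a term for the spleen. The procedure was tested on simulated data. The background level, 1.25 log2, is the 95th percentile of the means of 34 genes of other tissues. The labels give a spleen per biological replicate, read here as cultures of the same number sharing a spleen. Deviations from group means correlated at r 0.345 to 0.533 in the 9 pairs of arrays from the same spleen. In the 18 pairs that differed in both spleen and group r was -0.414 to -0.079. Deviations within a group cancel in sum, so these ranges are not independent of each other. A fit with the spleen as a block was run beside the main fit. Its values are given for the members and, for the lists, as counts and for some genes. The number of arrays limits the precision.

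The named genes are all members, the genes of 4 related lists that passed in either comparison with DMSO, the paralogues, Atf4 and the 3 genes most correlated with each member. Ifng, Prf1, Eif2ak4 and the list genes named for passing with the block alone were added after their values were seen. In the ATF4 list not all genes that passed with the block alone are named. Members and lists were chosen with earlier results of these data known. Promoter sequences and names are from RefSeq (GRCm38.p6).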

Additional observations from a re-analysis of the deposited data

How the results depend on the processing

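Leaving out a whole spleen, which leaves 2 arrays a group, ended every member's call: the limma counts were 0 for both comparisons with DMSO, while 6 of 7 members for rapamycin and 5 or 6 for KU-0063794 had an unadjusted p under 0.05, and at most 1 and 3 of all genes were called. Without 1 array, members called were 2 to 4 for rapamycin (2 without rapamycin replicate 3) and 2 to 3 for KU-0063794. All genes called were then 183 to 514 (183 without rapamycin replicate 3) and 123 to 548 (123 without KU-0063794 replicate 2). With the spleen as a fixed replicate block 6 members passed for each inhibitor, and 1561 and 1644 of all genes, against 590 and 540 without it. As a random block it gave 5 members for KU-0063794, and 1245 and 1291 of all genes. With only the 2 groups compared 2 members passed for rapamycin, and 98 and 111 of all genes, and with the trend option 5 members for KU-0063794. Under quantile normalization, median centring, other filters, other ways to take probe sets, robust fits and array weights each count stayed within 1.5 times its value, and KU-0063794 against rapamycin gave 0 calls under each alternative run.

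Signs turned for these log2 fold changes. For rapamycin Shmt2 ranged from -0.28 to 0.025 without 1 array and was 0.030 without spleen 3. Mthfd1 ranged from -0.089 to 0.096, and was -0.0058 with array weights and -0.015 without spleen 1. Mthfd2l, at background, ranged from -0.0042 to 0.053 and was -0.0063 without spleen 1. For KU-0063794 Shmt2 ranged from -0.15 to 0.015 and was 0.021 without spleen 3, Mthfd2l ranged from -0.052 to 0.12 and was -0.033 without spleen 2, and Pycrl ranged from -0.026 to 0.12. Ppat was -0.073 for rapamycin and -0.0030 for KU-0063794 when only probe sets free of the suffix x or s were kept, an alternative chosen after seeing the data. For KU-0063794 against rapamycin Shmt2 ranged from -0.10 to 0.21, with -0.0093 without spleen 3, and Aldh18a1 from -0.047 to 0.18. The cause was not tested.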
